A study of Homo sapiens with 6 samples.

Results

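The transcripts examined here encode 9 enzymes and enzyme subunits of the mitochondrial tricarboxylic acid (TCA) cycle: CS, IDH3A, IDH3B, IDH3G, OGDH, SUCLA2, SUCLG1, FH and MDH2. They were chosen by symbol, as enzymes of this cycle, and all 9 were found among the 60609 genes of the count tables and among the 20725 genes with enough counts to be tested. RNA was measured by stranded, polyA-selected sequencing in OCI-AML5, a human acute myeloid leukemia cell line grown in medium with serum and the cytokine GM-CSF. The 3 control libraries came from cells treated with the solvent dimethyl sulfoxide (DMSO), and the other 3 from cells treated with 1 μM S767, a small molecule that came out of a screen of primary leukemia specimens, both for 24 hours. The comparison asks how the cells' transcripts responded to the compound. All libraries came from 1 cell line, and the labels number the replicates without saying how the cultures were separated, so that p-values measure the spread between these libraries.

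The TCA cycle oxidizes acetyl groups to carbon dioxide in the mitochondrial matrix and passes the electrons to the respiratory chain. Citrate synthase joins acetyl-CoA to oxaloacetate, isocitrate dehydrogenase and the 2-oxoglutarate dehydrogenase complex release carbon dioxide, succinyl-CoA synthetase yields a nucleoside triphosphate, and fumarase and malate dehydrogenase restore oxaloacetate. Its enzymes are encoded in the nucleus and serve nearly every cell with mitochondria, so the transcripts are common to most tissues.

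Library depth ranged from 149994700 to 258029564 counts in genes. Of 10 markers of myeloid leukemia cells, 8 were above 1 TPM (a level scaled for transcript length and library size) in every library, and 14 of 16 markers of other cell types were below 1 TPM in every library. The summed level of the latter was 7.66 to 14.5 TPM in DMSO and 9.57 to 15.5 TPM in S767, and their part in the results below was not tested. In bulk RNA, fewer cells of a type and less RNA per cell cannot be told apart.

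None of the 9 transcripts passed the test for a change with S767. In the fit that did not use the replicate numbers, each fitted change had a narrow interval that included 0. The 2 groups of libraries overlapped for every gene in CPM (counts scaled to library size). By the quasi-likelihood test of edgeR, adjusted after Benjamini and Hochberg over all genes tested, 0 of the 9 had an unadjusted P under 0.05, against 3.53% of all genes tested, and 0 had an adjusted p under 0.05, against 0.00483%. That last share is a single gene, ALAS1, the first enzyme of heme synthesis, named here after its values were seen. The fitted log2 fold changes ran from -0.033 for IDH3B to 0.078 for OGDH, with a median of -0.012, beside a median of -0.00024 over all genes tested. The fitted value was above 0 for 3 genes and below 0 for 6, and on the log2(TPM + 1) scale it was above 0 for 1, OGDH. Over the 9 genes the 95% intervals reached from a change of -8.84% to one of 14.5%.

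Libraries with the same replicate number resembled each other, and an edgeR fit that took this number as a block had smaller standard errors. In that fit 1 of the 9, OGDH, had a P under 0.05, against 16.8% of all genes, and 0 had an adjusted p under 0.05, against 3.23%. The 95% intervals of the 9 then reached from -5.92% to 9.43%, and that of OGDH, from 1.62% to 9.43%, did not include 0. The largest fitted size among the 9, that of OGDH without the block, exceeded the size of 54.0% of all genes tested. Among the 6203 genes whose mean log2 CPM was over 5, it exceeded 86.3%.

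**Figure D1:**
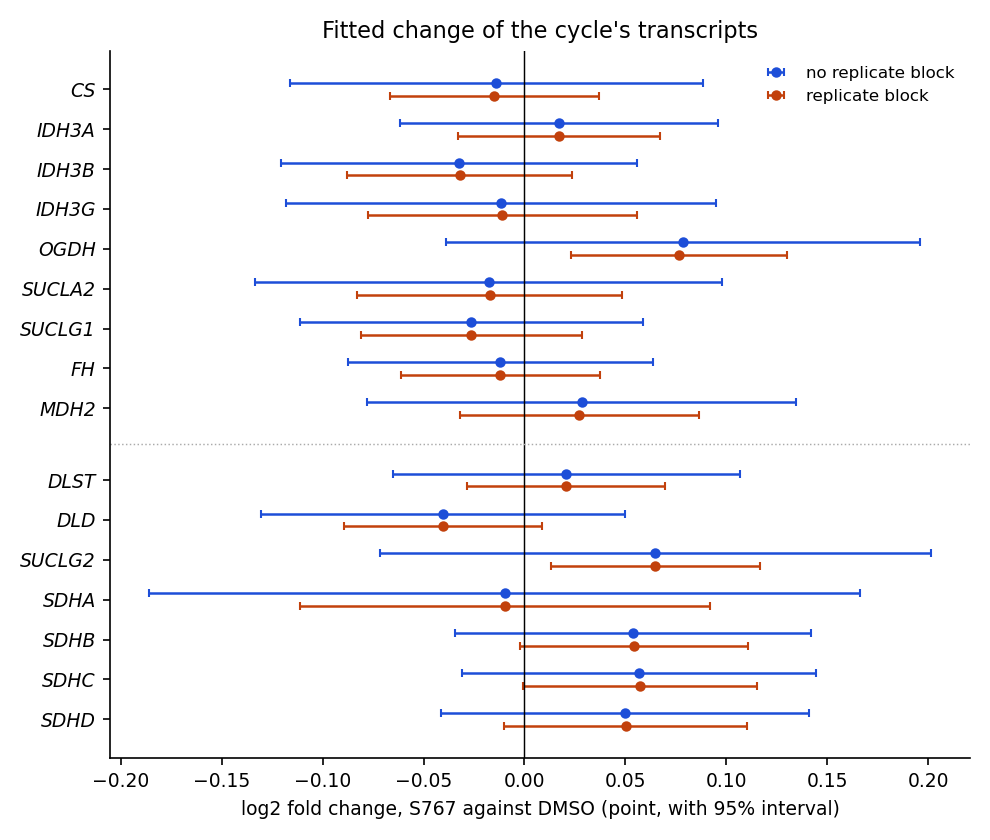
Fitted log2 fold change of S767 against DMSO (horizontal axis) for the 9 enzymes above the dotted line and 7 other genes of the cycle below it, as a point with its 95% interval, without (blue) and with (orange) the replicate block in edgeR. All 16 intervals without the block include 0, and with the block those of OGDH and SUCLG2 lie above 0.

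CS encodes citrate synthase, which forms citrate at the entry to the cycle. Its gene lies on the minus strand of chromosome 12 (56271699 to 56300392, GENCODE 29 positions on GRCh38). CS was at 191, 198 and 197 TPM in the DMSO libraries and at 191, 193 and 187 TPM in the S767 libraries, in the order of the replicate numbers. The second S767 library lay inside the DMSO range and the other two just below it. The fitted log2 fold change of the counts was -0.014 ± 0.045 (SE, n = 3 per group, adjusted p = 1.0 by edgeR's quasi-likelihood test). RSEM gave CS 117% to 118% of the counts of the strand-specific table, and a second protein-coding gene model, AC073896.1, overlaps it on the same strand, so the number of reads assigned to CS depended on the counting.

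The NAD-dependent isocitrate dehydrogenase is built from a catalytic alpha subunit, IDH3A, and the subunits IDH3B and IDH3G, which take part in its regulation. IDH3A lies on chromosome 15 (78131498 to 78171949, plus strand), IDH3B on chromosome 20 (2658395 to 2664219, minus strand) and IDH3G on the X chromosome (153785766 to 153794523, minus strand). IDH3A was at 89.4, 84.1 and 89.1 TPM in DMSO and at 88.9, 83.2 and 88.6 TPM in S767. In both groups the second replicate was the lowest, and each S767 library lay less than 1 TPM below its DMSO partner. The counts gave the opposite sign, with a log2 fold change of 0.017 ± 0.034 (SE), a size below the spread between replicates on either scale.

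IDH3B was at 125, 114 and 117 TPM in DMSO and at 118, 110.0 and 114 TPM in S767. The first DMSO library was the highest, and the groups overlapped. IDH3B had the most negative fitted value of the 9, a log2 fold change of -0.033 ± 0.039 (SE), with a 95% interval from -8.03% to 3.93%. IDH3G was at 59.2, 56.2 and 53.4 TPM in DMSO and at 56.5, 55.1 and 55.8 TPM in S767, so that the 3 S767 libraries lay inside the DMSO range. Its log2 fold change was -0.012 ± 0.047 (SE).

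The letters of 2 short promoter motifs were looked for in the 250 bases before the RefSeq transcript start (GRCh38.p14), on both strands, because NRF1, a transcription factor of nuclear genes for mitochondrial proteins, and the ETS family factor GABP are known to act on such genes. A promoter entry was matched for 8 of the 9 genes, not for OGDH. The NRF1 core TGCGCA, which reads the same on both strands, was in 2 of the 8, IDH3B and IDH3G. It was in 6.89% of all 35116 promoters and in 8.33% of the 21577 promoters of protein-coding genes, to which the 8 belong. The ETS core with its flank, CCGGAAG, was in 3 of the 8, IDH3B, IDH3G and MDH2. It was in 8.52% of all promoters and in 10.7% of those of protein-coding genes. The sequences below show these matches in capitals with their flanks, 5′ to 3′ on the strand of the gene, because IDH3B and IDH3G encode partner subunits and hold both motifs.
IDH3B NRF1 core, chr20:2664342-2664371, minus strand: agacaaagtgctTGCGCAtcccatgacctc
IDH3B ETS core, chr20:2664239-2664267, minus strand: ctcagtacaggCCGGAAGtcggggtacgg
IDH3G NRF1 core, chrX:153794415-153794444, minus strand: cgaccgcgcgcgTGCGCAgtaccgggtccg
IDH3G ETS core, chrX:153794450-153794478, minus strand: tgctctaggcgCCGGAAGggggcgtgaat
MDH2 first ETS core, chr7:76047982-76048010, plus strand: ctttccgactcCCGGAAGtggccgtgatc
MDH2 second ETS core, chr7:76048026-76048054, plus strand: ggcgagcgcgaCCGGAAGtccggtcactc

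The first base of the NRF1 core lies 143 bases before the start in IDH3B and 57 bases before it in IDH3G. The CCAAT box (CCAAT) was in 4 of the 8 promoters, in 32.0% of all promoters and in 33.0% of those of protein-coding genes. The TATA box letters TATAAA were in 0 of the 8, in 10.7% of all and in 8.97% of those of protein-coding genes. The GC content of the 8 windows ran from 51.6% to 70.4%, beside a median of 58% over all promoters and 62% over those of protein-coding genes. These matches are descriptions of letters, not of binding.

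OGDH encodes the E1 subunit of the 2-oxoglutarate dehydrogenase complex, which binds and decarboxylates 2-oxoglutarate. Its gene lies on chromosome 7 (44606572 to 44709066, plus strand). OGDH was at 39.6, 40.8 and 39.3 TPM in DMSO and at 42.2, 43.1 and 38.8 TPM in S767. The first and second S767 libraries were above the DMSO range and the third was below it. In CPM, OGDH was at 111, 116 and 109 in DMSO and at 117, 126 and 112 in S767, higher in S767 within each of the 3 replicate numbers.

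The fitted log2 fold change of OGDH was 0.078 ± 0.051 (SE), with a 95% interval from -2.68% to 14.5% and an unadjusted P of 0.16 by edgeR. The exact permutation test gave p = 0.2, where 3 libraries against 3 allow no p below 0.1. With the replicate block the value was 0.077 ± 0.025 (SE), with an unadjusted P of 0.0086 and an adjusted p of 0.12 by edgeR. In the fit with the block, leaving out the replicate 1 pair gave OGDH an adjusted p of 0.033, in a fit that called 9.86% of all genes, and leaving out the replicate 2 pair gave an unadjusted P of 0.16. Whether OGDH was called thus depended on which pairs of libraries entered the fit.

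Within the 9 genes, 2 moved one way in all 3 replicate numbers in log2 CPM, OGDH and IDH3A, against 37.8% of all genes tested. For OGDH the differences were 0.069, 0.12 and 0.038. For IDH3A they were 0.00024, 0.0081 and 0.042, so that the first difference was close to 0. No gene of the 9 had groups that did not overlap in log2 CPM, against 9.21% of all genes.

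The 3 pairs did not move the 9 genes alike. In the first pair 6 of the 9 were lower in S767, led by IDH3B and IDH3G, both at -0.093, and SUCLA2 at -0.085. In the second pair 5 of the 9 were higher and in the third 6 of the 9, where IDH3G was at 0.062, SUCLA2 at 0.059 and MDH2 at 0.065. IDH3G, SUCLA2 and MDH2 thus had differences of opposite sign in the first pair and the third.

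**Figure D2:**
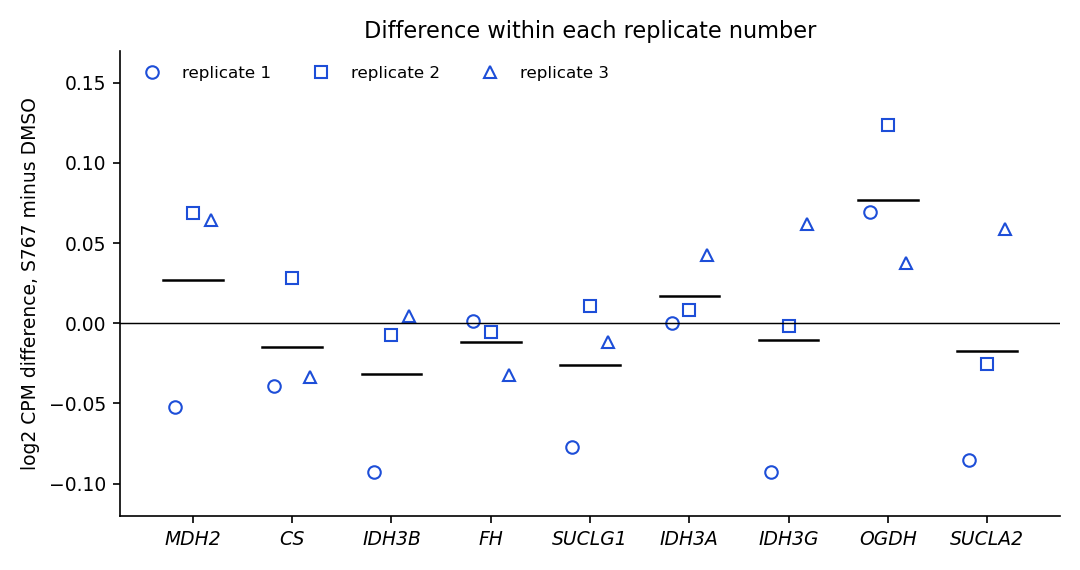
Difference in log2 CPM between the S767 and the DMSO library of the same replicate number (vertical axis) for each of the 9 enzymes, ordered by TPM, with a symbol for each replicate number and a line at their mean. The 3 symbols of OGDH lie above 0, from 0.038 to 0.12, and those of IDH3G run from -0.093 to 0.062.

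Succinyl-CoA synthetase pairs a common alpha subunit, SUCLG1, with 1 of 2 beta subunits, SUCLA2 for the ATP-forming enzyme or SUCLG2 for the GTP-forming enzyme. SUCLG1 lies on chromosome 2 (84423523 to 84460045, minus strand) and SUCLA2 on chromosome 13 (47745736 to 48037968, minus strand). SUCLG1 was at 107, 98.6 and 106 TPM in DMSO and at 103, 97.6 and 102 TPM in S767, with the second replicate lowest in both groups. Each S767 library lay below its DMSO partner in TPM, while in CPM the second pair went the other way. The log2 fold change of the counts was -0.026 ± 0.037 (SE).

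SUCLA2 was at 37.5, 33.9 and 34.7 TPM in DMSO and at 37.5, 32.7 and 35.7 TPM in S767. The first replicate was the highest in both groups, and the group means differed by less than 0.1 TPM, at 35.4 ± 1.92 and 35.3 ± 2.45 TPM (SD, n = 3 each). The log2 fold change of the SUCLA2 counts was -0.018 ± 0.051 (SE). The processed copies SUCLA2P1, SUCLA2P2 and SUCLA2P3 held 0 to 8 counts in each library.

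FH encodes fumarase, which hydrates fumarate to malate and whose loss is known from hereditary tumors. Its gene lies on chromosome 1 (241497603 to 241519761, minus strand). FH was at 113, 113 and 115 TPM in DMSO and at 115, 110.0 and 112 TPM in S767. The S767 libraries spanned a wider range that enclosed the DMSO values. Its log2 fold change was -0.012 ± 0.033 (SE), the smallest standard error of the 9.

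MDH2 encodes the mitochondrial malate dehydrogenase, which returns malate to oxaloacetate. Its gene lies on chromosome 7 (76048051 to 76067508, plus strand). MDH2 was at 203, 204 and 194 TPM in DMSO and at 196, 206 and 198 TPM in S767. The groups overlapped, with the third DMSO library lowest and the second S767 library highest. The log2 fold change was 0.028 ± 0.047 (SE) from the counts, while the mean TPM was 201 ± 5.98 in DMSO and 199.8 ± 5.22 in S767 (SD, n = 3 each).

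The levels of the 9 transcripts spanned a wide range and kept 1 order in both groups. In DMSO the mean TPM fell from 201 for MDH2 and 195 for CS to 119 for IDH3B, 114 for FH, 104 for SUCLG1, 87.5 for IDH3A, 56.3 for IDH3G, 39.9 for OGDH and 35.4 for SUCLA2, a 5.67-fold range. All 9 stood between the 81.1 and 96.8 percentiles of mean TPM among the genes tested. MDH2 and CS, and IDH3B and FH, were neighbors whose DMSO libraries overlapped, so that these pairs did not differ beyond their spread, and the other 6 steps did not overlap. The order of the means was the same in S767, where 1 of the 8 steps, IDH3B to FH, overlapped. The 9 levels summed to 951 ± 12.4 TPM in DMSO and 937 ± 9.78 TPM in S767 (SD, n = 3 each). The sum was lower in S767 within each replicate number, at differences of -17.6, -13.0 and -13.0 TPM. The sums of the groups overlapped, at 943 to 966 TPM in DMSO and 930 to 948 TPM in S767. In log2 CPM, however, 5 of the 9 genes were higher in S767 in the second pair and 6 in the third.

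**Figure D3:**
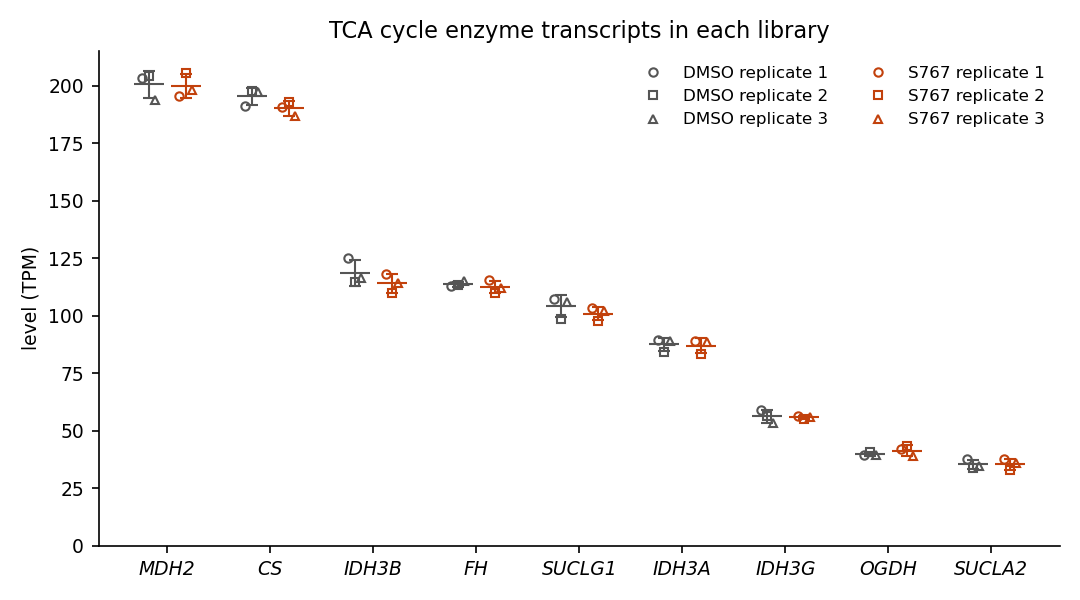
Level of each of the 9 enzyme transcripts in TPM (vertical axis, from 0) in the 3 DMSO (gray) and the 3 S767 (orange) libraries, with the mean and SD as bars and a symbol for each replicate number. The genes are ordered by their DMSO mean, from MDH2 at 201 TPM to SUCLA2 at 35.4 TPM, and the groups overlap for every gene.

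The balance of subunits within each complex was compared as a ratio of TPM values, which are scaled for length, in 8 ratios fixed together. The beta and gamma subunits of isocitrate dehydrogenase were unequal. IDH3B was 2.11 ± 0.073 times IDH3G in DMSO and 2.04 ± 0.047 times in S767 (SD, n = 3 each). IDH3A was 0.738 ± 0.025 times IDH3B in DMSO and 0.762 ± 0.012 times in S767, and 1.56 times IDH3G in both groups. In succinyl-CoA synthetase, SUCLG1 exceeded both beta subunits. SUCLA2 was 0.34 ± 0.011 times SUCLG1 in DMSO and 0.35 ± 0.015 times in S767, and SUCLG2 was 0.412 ± 0.038 and 0.441 ± 0.028 times SUCLG1.

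The groups overlapped in all 8 ratios. The exact permutation tests, two-sided on the log2 ratio, gave p-values from 0.2 to 1.0 and Benjamini-Hochberg values over the 8 from 0.64 to 1.0. The ratio of OGDH to DLD, the E1 and E3 subunits of the 2-oxoglutarate dehydrogenase complex, had the lowest p. It was 0.449, 0.476 and 0.443 in DMSO and 0.503, 0.561 and 0.47 in S767, higher in S767 within each replicate number, with exact p = 0.2. From the strand-specific counts in place of TPM the groups did not overlap for this ratio, with a log2 difference of 0.12. Its exact permutation p was 0.1, the smallest the test allows. By counts this was the only 1 of the 8 ratios without overlap, and that p was not adjusted over the 8. The ratio of OGDH to DLST, the E2 subunit, was 0.616 ± 0.022 in DMSO and 0.636 ± 0.029 in S767. Taken within replicate numbers, 5 of the 8 ratios moved one way in all 3 pairs, beside 37.8% of single genes tested in log2 CPM. That share is no background for TPM ratios of 2 genes, for which none was computed. Several of these 5 share a gene, so they are not independent. The mean log2 difference within pairs was 0.16 ± 0.044 (SE, n = 3 pairs) for OGDH to DLD, 0.046 ± 0.0087 for OGDH to DLST, 0.1 ± 0.028 for SUCLG2 to SUCLG1, 0.047 ± 0.016 for IDH3A to IDH3B and -0.046 ± 0.023 for IDH3B to IDH3G. From the strand-specific counts the log2 differences were 0.12, 0.056, 0.091, 0.049 and -0.021 in the same order. An exact sign-flip test over 3 pairs allows no p below 0.25, so none was run on these. DLD also serves as E3 in other dehydrogenase complexes, so this ratio is not confined to 1 complex.

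RSEM also lists an effective length, a mean over the isoforms it assigned to a gene, which can shift when the isoform mixture does. It also varied between libraries of the same group. SDHB, for example, was at 909, 919 and 913 bases in DMSO and at 902, 919 and 906 bases in S767. Whether the isoform mixture of any gene changed was not tested. The groups did not overlap for 2 of the 9 genes, SUCLA2 and OGDH, against 5.25% of all genes tested. SUCLA2 was at 1669, 1665 and 1688 bases in DMSO and at 1599, 1641 and 1660 bases in S767, shorter in all 3 S767 libraries. OGDH was at 3648, 3626 and 3632 bases in DMSO and at 3673, 3668 and 3653 bases in S767, longer in all 3. The nearest OGDH libraries of the 2 groups, at 3648 and 3653 bases, lay close together. The log2 differences were -0.036 for SUCLA2 and 0.012 for OGDH, beside a median of -0.002 over all genes tested. These shifts enter the TPM values of both genes, since TPM divides by this length, and no test was run on the lengths. DLD, whose groups overlapped, was at 1606, 1703 and 1589 bases in DMSO and at 1674, 1789 and 1622 bases in S767. It was longer within each replicate number, at a log2 difference of 0.054, which enters the TPM ratio of OGDH to DLD.

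For some of the 9 the number of counts depended on how reads were assigned. IDH3A is overlapped on the opposite strand by CIB2 and ACSBG1, and counts that ignore strand gave it 50.5% to 51.7% of its strand-specific counts. IDH3G, which SSR4 overlaps on the opposite strand, had 83.8% to 85.2%. From those counts the log2 fold change was -0.0013 for IDH3A and -0.0062 for IDH3G. FHP1, a processed copy of FH, held 5 to 9 counts per library.

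Another 7 genes of the cycle were fitted in the same way. These were DLST and DLD (partners of OGDH), SUCLG2, and SDHA, SDHB, SDHC and SDHD (succinate dehydrogenase, which is also complex II of the respiratory chain). Without the block 0 of 7 had P under 0.05 by edgeR, against 3.53% of all genes. With the block 1 of 7, SUCLG2, was higher in S767 at an unadjusted P of 0.018 by edgeR, against 16.8% of all genes with P under 0.05. An adjusted p under 0.05 was reached by 0 of 7 with the block, against 3.23% of all genes. The median log2 fold change of the 7 was 0.05, with 5 above 0. SUCLG2 was at 0.065 ± 0.06 (SE), with 39.9, 44.1 and 44.3 TPM in DMSO and 42.7, 45.8 and 44.7 TPM in S767. SDHB, SDHC and SDHD were at 0.054, 0.057 and 0.05, DLD at -0.04 and DLST at 0.021. SDHA was at -0.0098 from the strand-specific counts, which hold few of its reads, since RSEM, which shares out reads that map to several places, assigned it 2585% to 2769% of them. From the RSEM estimates its log2 fold change was 0.04. In the fit with the block and without the replicate 1 pair, which called 9.86% of all genes, SDHB, SDHC and SDHD had an adjusted p of 0.038, 0.013 and 0.039 by edgeR. Without the replicate 2 pair these were 0.73, 0.74 and 0.82, and without the replicate 3 pair 0.87, 0.87 and 0.89.

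Counterpart enzymes carry out the same or linked steps outside the cycle or with another cofactor. Of 6 tested, 0 had P under 0.05 without the block, against 3.53% of all genes. With it 2, IDH2 and ACO1, had an unadjusted P under 0.05 by edgeR, against 16.8% of all genes. Both were higher in S767 at an adjusted p under 0.05, against 3.23%. IDH2, the mitochondrial NADP-dependent isocitrate dehydrogenase, was at 155, 170.3 and 173 TPM in DMSO and at 172, 193 and 191 TPM in S767. It was higher in S767 within each replicate number, with a blocked log2 fold change of 0.15 ± 0.025 (SE, adjusted p = 0.0085 by edgeR). ACO1, a cytosolic enzyme that as an iron regulatory protein also binds RNA, was at 0.12 ± 0.028 (SE, adjusted p = 0.041). Without the block both had an adjusted p of 1.0. IDH3A, IDH3B and IDH3G, which catalyze the NAD-dependent version of the IDH2 step, were at 0.017, -0.032 and -0.011 in the blocked fit. MDH1, the cytosolic partner of MDH2, was at 0.029, ACLY at -0.048 and IDH1 at -0.027, none past an adjusted p of 0.05 with all pairs. Without the replicate 1 pair ACLY was at -0.078 with an adjusted p of 0.031 by edgeR.

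Pyruvate entry covers the carriers, the pyruvate dehydrogenase complex and its kinases and phosphatases, which feed acetyl-CoA to CS. Of 14 genes tested, 0 had P under 0.05 without the block, against 3.53% of all genes. With it 5 had an unadjusted P under 0.05 by edgeR, 3 higher and 2 lower in S767, against 16.8% of all genes. Of these 1, PDK1, was lower at an adjusted p under 0.05, against 3.23%. PDK1, a kinase that inhibits pyruvate dehydrogenase, was at 4.98, 8.91 and 8.45 TPM in DMSO and at 5.55, 6.32 and 5.9 TPM in S767. The first DMSO library was lower than its S767 partner, and the other 2 pairs went down by 0.58 and 0.48 in log2 CPM. The blocked value was -0.35 ± 0.08 (SE, adjusted p = 0.036 by edgeR), and without the replicate 1 pair it was -0.53. The complex's subunits PDHA1, PDHB and DLAT were at -0.032, -0.018 and -0.022 in the blocked fit.

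Anaplerosis and exchange covers enzymes and carriers that move carbon in and out of the cycle. Of 13 genes tested, 0 had P under 0.05 without the block, against 3.53% of all genes. With it 5 had an unadjusted P under 0.05 by edgeR, 4 higher and 1 lower in S767, against 16.8% of all genes. Of these 2 had an adjusted p under 0.05, PCK2, which was higher, and ME1, which was lower, against 3.23%. PCK2, the mitochondrial phosphoenolpyruvate carboxykinase, was at 0.17 ± 0.033 (SE, adjusted p = 0.018 by edgeR). ME1, the cytosolic malic enzyme, was at -0.29 ± 0.048 (SE, adjusted p = 0.0082), at a low level of 2.87 to 5.64 TPM. GLUD1, GOT2 and ME2, the 3 others with the highest levels, were at -0.026, 0.00061 and 0.053. None of IDH2, ACO1, PDK1, PCK2 and ME1 had an adjusted p under 0.05 in the blocked fit without the replicate 2 pair, which called 0.113% of all genes. Their log2 fold changes in that fit were 0.12, 0.14, -0.23, 0.12 and -0.32. Without the replicate 3 pair ACO1 was at 0.1 with an adjusted p of 0.16 by edgeR, and the other 4 were still called.

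Regulators of mitochondrial gene expression were tested for 8 of 9 genes, PPARGC1A having too few counts. Of these, 1 had P under 0.05 by edgeR without the block, NRF1, against 3.53% of all genes. With the block 3 had it, all lower in S767, against 16.8% of all genes. An adjusted p under 0.05 was reached by 0 of the 8 without the block, against 0.00483%, and by 0 with it, against 3.23%. NRF1 was at 16.5, 15.9 and 15.9 TPM in DMSO and at 15.9, 14.6 and 14.2 TPM in S767. Its log2 fold change was -0.1 ± 0.042 (SE), with an unadjusted P of 0.042 and an adjusted p of 1.0 by edgeR, and with the block it was -0.1 ± 0.028 (SE, adjusted p = 0.073). All 8 were below 0, against 10394 of the 20725 genes tested, and their median was -0.038. On the log2(TPM + 1) scale, however, YY1 was at 0.02. Leaving out 1 library put 1 of the 8 above 0 for DMSO replicate 1 (ESRRA), DMSO replicate 3 (TFAM) and S767 replicate 2 (ESRRA). TFAM, YY1 and ESRRA were at -0.018, -0.024 and -0.027. IDH3B and IDH3G, whose promoters hold the NRF1 core, were at -0.033 and -0.012, both smaller in size than their standard errors. The 6 other promoters without it belonged to genes from -0.026 to 0.028. A link between the NRF1 transcript and these genes was not tested.

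**Figure D4:**
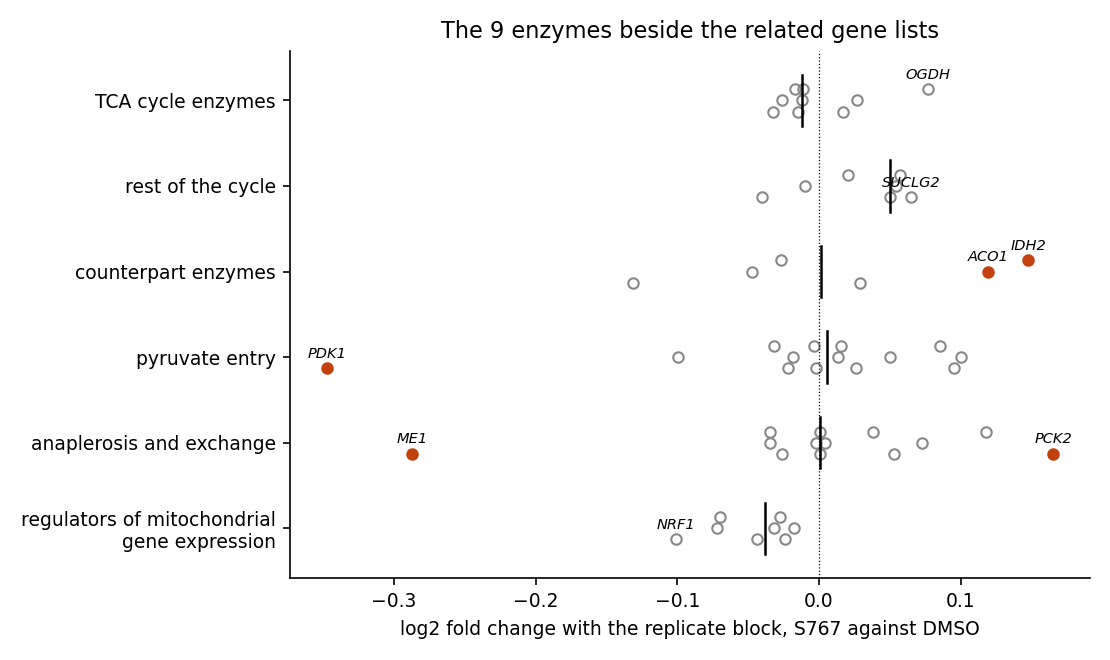
Log2 fold change of S767 against DMSO in the fit with the replicate block (horizontal axis) for each gene tested of the 9 enzymes and the 5 related lists, with a black line at the median of each list and filled orange points for an adjusted p under 0.05. The 9 enzymes lie from -0.032 to 0.077 with no filled point, and the 5 filled points belong to IDH2, ACO1, PDK1, PCK2 and ME1.

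The mean profile of the 9 over the 6 libraries, as log2 CPM centered on each gene's mean, was nearly flat, from -0.024 in the third DMSO library to 0.023 in the second S767 library. FH lay nearest to that mean, at a root mean square difference of 0.022 over the 6 libraries, and OGDH farthest, at 0.063. Of 6139 other genes above a mean log2 CPM of 5, 3.86% lay nearer to it than FH and 63.1% nearer than OGDH. Each of the 9 is part of the mean it is compared with and the other genes are not, which favors the 9. The 5 genes outside the lists with the most similar profile were INTS15, TADA1, BRK1, IFRD2 and SPCS3, at 0.008 to 0.0092. A flat profile is shared by many genes, so that this likeness is a description.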

How the data were processed

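The authors prepared polyA-selected, strand-specific libraries from OCI-AML5 cells and sequenced them on an Illumina instrument. Per the submitters' processing notes they used STAR 2.7.1a, RSEM 1.2.28 and the build GRCh38, and the annotation release is not given in the sources used here. The authors deposited a table of whole-number counts per gene for each library, with a column that ignores strand and one for each strand, and an RSEM gene table. The deposited RSEM expected counts are estimates that share out reads mapping to several genes, the deposited TPM and FPKM values are scaled for length and depth by RSEM, and the deposited effective lengths are in bases. The column for the reverse strand was used, since the other strand held 6.44% to 6.58% of both. The lines that name no gene held 19.7% to 20.7% of the counts and were left out.

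Gene symbols came from a gene name list matched by Ensembl identifier without its version, and from GENCODE 29 where that list had none. Gene positions came from GENCODE 29. Counts were normalized by TMM, kept with filterByExpr (minimum count 10) and compared with edgeR 4.0.16 (limma 3.58.1, DESeq2 1.42.0, R 4.3.3). Standard errors are the log2 fold change over the square root of F. Single values were compared by exact permutation, two-sided, on log2 CPM with a prior count of 2. The scripts were tested on simulated data. Pairing was taken from the replicate numbers in the titles. Within-group deviations in log2 CPM correlated at 0.78, 0.87 and 0.75 between libraries with the same number over 6191 genes. Correlations between all others were negative. Deviations from a group's own mean cancel within the group, so these negative values are no separate evidence of pairing. No 2 libraries agreed within sampling noise. At these depths counting error is small beside the spread between libraries.

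The 9 enzymes, the related lists and the tests were chosen with earlier results of these data known. Beside the 9 and 7 other genes of the cycle (1 gene of that list is not reported here), the text names the members of the other lists with P under 0.05 without the block or an adjusted p under 0.05 with it, up to 3 more per list with the highest TPM, and the 5 genes most like the mean profile. The alternatives were limma-voom, DESeq2, other normalizations and filters, RSEM expected counts rounded to whole numbers, counts that ignore strand, limma on log2(TPM + 1) and log2(TPM + 0.1), the replicate block and leaving out libraries or pairs.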

Additional observations from a re-analysis of the deposited data

How the results depend on the processing

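The counts of enzymes called depended on the replicate block, not on the normalization, the filter or the tool. In the 10 alternatives without a block that kept all libraries and in the 6 that left out a library, 0 of the 9 had an unadjusted P under 0.05. Of all genes tested in these fits, 2.53% to 5.2% had it. With the replicate block 1 of the 9 had it, OGDH, in edgeR, DESeq2 and limma-voom, with RSEM expected counts, with library size alone and without the replicate 3 pair, against 10.2% to 17.6% of all genes. Without the replicate 1 pair there were 2, OGDH and MDH2, against 21.1%. Of these 1, OGDH, had an adjusted p under 0.05, against 9.86%. Without the replicate 2 pair 0 of the 9 had an unadjusted P under 0.05, against 8.94%. The number of all genes with an adjusted p under 0.05 was 1 by edgeR, 25 by DESeq2, 9 with no limit on low counts and 0 by limma on TPM, and with the replicate block 670 by edgeR and 394 from RSEM expected counts. With the block it was 2034 when the replicate 1 pair was left out, but 24 when replicate 2 was. The median log2 fold change of the 9 ran from -0.0199 to 0.0207 over all 24 alternatives, less than its spread over the pairs. The number of neighbors in the order of levels that overlapped was 2 in DMSO, 1 from FPKM and 0 to 2 when a DMSO library was left out, and the order of the means stayed the same.

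All fitted values of the 9 lay between -0.06 and 0.12, and 15 of 216 had the other sign, of which 4 round to 0 at 2 decimals. On both TPM scales IDH3A and MDH2 were at -0.01, SDHA at 0.02 and YY1 at 0.02, and from RSEM expected counts SDHA was at 0.04 with and without the replicate block. In the replicate block without the replicate 1 pair IDH3G was at 0.03, SUCLA2 at 0.02 and PDHB at 0.02. Leaving out 1 library gave CS -0.05 to 0.02, IDH3G -0.05 to 0.02, SUCLA2 -0.04 to 0.02, MDH2 -0.01 to 0.07, SDHA -0.05 to 0.03, IDH1 -0.11 to 0.05, PDHB -0.05 to 0.02, GLUD1 -0.06 to 0.02 and ESRRA -0.08 to 0.05, and the log2 ratio of SUCLA2 to SUCLG2 -0.13 to 0.03. The causes were not tested. With 3 libraries per group, the 95% intervals give the range of changes these libraries leave possible, and protein levels, enzyme activity and other times were not measured in these files.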
